A study of Mus musculus with 62 samples.

Results

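The level of H3K27ac (acetylation of lysine 27 on histone H3) was compared between a pair of mouse hindlimb muscles, the extensor digitorum longus (EDL) and the quadriceps (Quad), at the H3K27ac regions that both carried. Each peak of the EDL list was paired one to one with a peak of the Quad list when their overlap covered at least 50% of both. This left 22536 matched regions out of 35750 EDL peaks and 40949 Quad peaks, which is 63.04% of the EDL list and 55.03% of the Quad list. Both groups were wild-type mice labelled as C57BL/6 and sedentary, with 2 libraries each, and the study's methods give male C57BL/6J animals bought at 7 to 8 weeks of age. An EDL library pooled the muscle of 3 animals and a Quad library came from 1 animal, so the EDL libraries average over more mice. The antibody and the labels for strain, genotype and sedentary state were shared by both groups and by 2 further pairs of quadriceps libraries (Sed Quad and Wt Quad) that the series holds as controls of other experiments. By the methods, control mice of the exercise experiment were kept in single cages for 4 weeks from the age of 8 weeks, and the wild-type controls of the transgenic mice were their littermates, so the further sets differ from Quad in more than the animals drawn. Whole muscle was used, so a region can differ through the share of a cell type or through its level within that cell type, and bulk tissue cannot tell these apart.

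H3K27ac is placed by the acetyltransferases p300 and CBP on nucleosomes that flank active promoters and enhancers, and enhancers that carry it differ more between cell types than promoters do. Skeletal muscle is built of slow oxidative fibers and of faster fibers that range from oxidative to glycolytic, and each fiber type uses its own myosin heavy chain. The EDL is a small fast muscle that lifts the toes. The quadriceps is a large knee extensor whose heads are mostly fast, with a deep oxidative part.

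For each library, the level of a region was taken as the authors' log2 normalized tag value minus the log2 of the region's width in kb, and it was set so that the median of the matched regions is 0. A level of 1 is therefore 2-fold above the median region of that library per kb. Sequencing depth was 19.8 and 21.6 M tags for EDL and 24.2 and 15.3 M tags for Quad, so the second Quad library was the shallowest of the 4. Because the lists were normalized separately and hold no counts, no test was run between the muscles, and 2 against 2 libraries allow no exact two-sided p below 0.333. A region was counted as different where the group means were over 2-fold apart and the 2 EDL libraries did not overlap the 2 Quad libraries.

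The muscles ranked their shared regions alike. Spearman's rank correlation across the matched regions was 0.930 between group means of 2 libraries. Between single libraries it was 0.875 to 0.925 over the 4 pairings of EDL with Quad (SD 0.0220), below the values within a muscle, which were 0.959 between the EDL replicates and 0.931 between the Quad replicates. The difference between single libraries had an SD over regions of 0.36 to 0.47 for EDL with Quad, against 0.27 between the EDL replicates and 0.34 between the Quad replicates. Replicates of a muscle share peak bounds, widths and normalization, whereas EDL and Quad libraries do not. The values within and between muscles are therefore not like for like, and the part of this in their gap was not tested. The difference of group means had an SD of 0.34 and ranged from -1.39 to 1.53 on the log2 scale. The plot of EDL against Quad levels shows a single cloud along the diagonal.

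**Figure D1:**
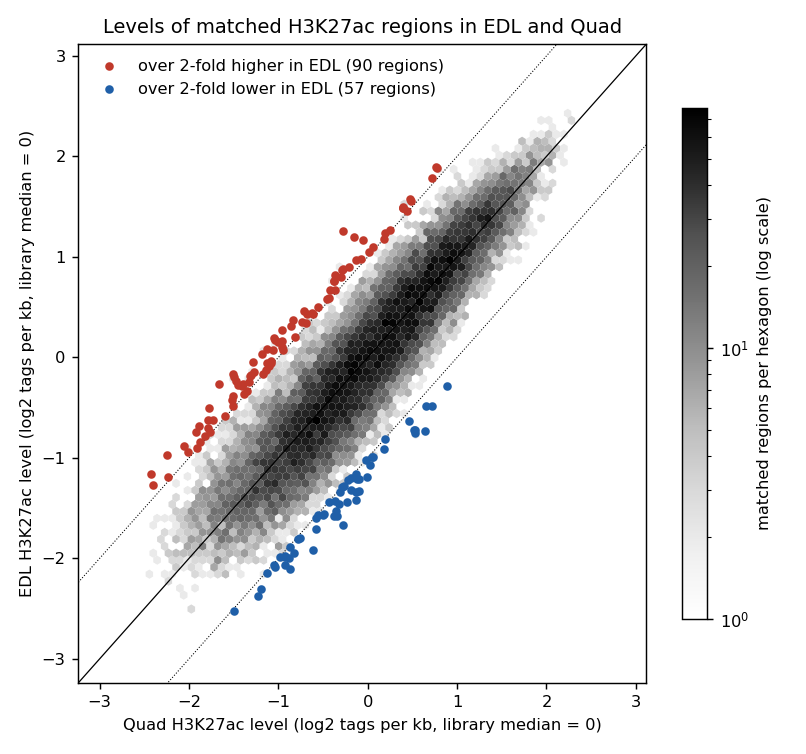
H3K27ac level of the 22536 matched regions in Quad (x axis) and EDL (y axis), each the mean of 2 libraries in log2 tags per kb with the library median at 0. Shading gives the number of regions per hexagon on a log scale, the solid line equality and the dotted lines a 2-fold difference, and the 90 red and 57 blue points are the regions over 2-fold higher or lower in EDL without overlap of libraries.

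In all, 90 regions were over 2-fold higher in EDL (0.399% of all matched regions) and 57 were over 2-fold lower (0.253%). They lay near 89 and 57 different nearest genes, out of 11513 nearest genes in all. The smallest differences that passed were 1.0018 near Nrip1 and -1.0001 near Tnpo1, and the largest that did not pass for size were 0.9995 near Clec2d and -0.9992 near Mir190a, so the limit cuts a continuous distribution. At 1.5-fold, 1020 regions were higher (4.53%) and 894 were lower (3.97%). The counts were 193 and 150 without the second EDL library and 280 and 206 without the first Quad library. The same 2-fold rule found more regions apart between quadriceps sets than between the muscles: 281 of 21277 (1.32%) between Quad and Sed Quad and 311 of 21353 (1.46%) between Quad and Wt Quad, against 147 of 22536 (0.652%) between EDL and Quad. Between EDL and the same further sets, with the EDL libraries in common, it was 228 of 22272 (1.02%) for Sed Quad and 453 of 20795 (2.18%) for Wt Quad. Between Quad and the soleus (Sol) it was 699 of 19468 (3.59%), and between Quad and the diaphragm (Dia) 791 of 18826 (4.20%). The EDL to Quad count did not exceed the counts between these quadriceps sets, whose mice also differed in housing or breeding.

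Stretches of DNA from 4 of the different regions are printed here so that their sequence can be seen. Each is 200 bases of the forward strand of GRCm38/mm10, and none overlaps an annotated exon. Each was taken at the middle of the highest open-chromatin (ATAC-seq) peak of Quad that overlapped the region shared by both lists. Where there was none, the middle of the shared region was used. Capitals mark the letters of 5 short words searched on both strands, each known as a core recognized by a family of muscle or general factors: CAGCTG (MyoD family), CTA and TAG with any 4 bases between them (MEF2), TGANTCA (AP-1), AAGGTCA (estrogen-related receptors) and GGAATG (TEAD).
Esrrg, higher in EDL, chr1:187904815-187905014, in intron 2 of 7: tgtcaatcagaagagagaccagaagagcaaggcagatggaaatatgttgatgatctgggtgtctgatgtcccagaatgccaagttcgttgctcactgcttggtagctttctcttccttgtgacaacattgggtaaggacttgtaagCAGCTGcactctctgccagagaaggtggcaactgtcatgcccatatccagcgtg
Slc2a4, higher in EDL, chr11:69955881-69956080, intergenic and 7.84 kb upstream: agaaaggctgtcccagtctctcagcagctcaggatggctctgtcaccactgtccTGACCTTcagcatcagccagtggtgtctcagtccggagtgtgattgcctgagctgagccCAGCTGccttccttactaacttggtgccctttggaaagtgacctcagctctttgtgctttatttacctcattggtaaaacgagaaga
Hoxc4, lower in EDL, chr15:103059819-103060018, intergenic and 26.1 kb downstream of the start site: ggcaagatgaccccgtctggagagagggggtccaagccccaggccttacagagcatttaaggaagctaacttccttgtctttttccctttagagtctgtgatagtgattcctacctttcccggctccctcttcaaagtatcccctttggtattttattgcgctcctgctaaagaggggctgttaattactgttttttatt
Foxo3, lower in EDL, chr10:42171144-42171343, intergenic and 105 kb downstream of the start site: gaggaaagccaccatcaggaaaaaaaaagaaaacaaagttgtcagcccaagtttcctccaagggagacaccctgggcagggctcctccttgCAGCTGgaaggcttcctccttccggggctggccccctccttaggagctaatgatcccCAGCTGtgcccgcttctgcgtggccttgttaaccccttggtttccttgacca
The Foxo3 stretch holds 2 CAGCTG words, the Esrrg stretch 1, and the Slc2a4 stretch 1 CAGCTG and 1 AAGGTCA (as its complement TGACCTT). The Quad peak at Esrrg ends at position 187904834. Most of the Esrrg stretch, with its CAGCTG, therefore lies in the EDL peak but outside the Quad peak. The Hoxc4 stretch holds 0 of the 5 words. A word is a match of letters and says nothing of which factor was bound.

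Over whole sets, the middle 300 bases of each region held CAGCTG in 19.4% of all matched regions, 21.1% of those higher in EDL (19 of 90) and 33.3% of those lower (19 of 57). At 1.5-fold its share was 19.9% and 23.9%. TGANTCA was present in 8.93%, 17.8% (16 of 90) and 14.04% (8 of 57), but in 8.23% of the 1020 regions higher at 1.5-fold and 10.96% of the 894 lower. AAGGTCA was present in 6.89%, 10% and 8.77%. GGAATG was present in 15.01%, 17.8% and 24.6%. The MEF2 word was the rarest, at 5.25%, 6.67% and 5.26%. The median GC content of these windows was 51% over all regions, 52.3% in the higher set and 47.3% in the lower set, and its part in the word shares was not tested.

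Regions of the 2 directions lay in different places, which is given here as shares and was not tested. Of all matched regions 17.3% were promoters (from 1 kb upstream to 100 bp downstream of a start site), against 9 of 90 (10%) higher in EDL and 2 of 57 (3.51%) lower. Far from start sites the order was turned round: 17 of 57 (29.8%) lay over 100 kb from the nearest start site, against 9 of 90 (10%) of those higher and 9.03% of all. Within 10 kb of a start site lay 13 of 57 (22.8%) of the lower set, 39 of 90 (43.3%) of the higher set and 49.6% of all. A share of 43.9% was intergenic in the lower set, 32.2% in the higher set and 28.1% over all. Both sets leaned to low levels, with 34 of 90 and 39 of 57 in the lowest 25% of mean levels and 12 and 0 in the highest 25%. Replicates also differed most in the lowest 25%, where the difference between them had an SD of 0.34 in EDL and 0.41 in Quad, against 0.19 and 0.21 in the highest 25%.

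The first 12 genes with higher H3K27ac in EDL came with different functions and were not tested for any shared one. Csrp3 encodes muscle LIM protein, a Z-disc protein typical of slow fibers. Its region in intron 1 of 5 (chr7:48840305-48843514) had levels of 0.0078 and -0.33 in EDL and -1.12 and -1.89 in Quad, a difference of 1.34 (2.54-fold). Both Quad libraries lay below both EDL libraries, and a MED1 peak of Quad overlapped the region. Myh14, a nonmuscle myosin heavy chain, had a region 5.91 kb upstream at -0.12 and -0.36 in EDL and -1.13 and -1.81 in Quad (2.35-fold). The other quadriceps sets stayed below EDL there, at -0.70 and -0.76 in Sed Quad and -1.57 and -0.96 in Wt Quad.

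Slk, a STE20-like kinase that acts on the cytoskeleton, showed the largest difference at its promoter (chr19:47579058-47580633). Levels were 1.38 and 1.13 in EDL against 0.051 and -0.60 in Quad, a difference of 1.53 (2.89-fold). Here the Quad libraries stood alone: Sed Quad was at 0.67 and 1.28, Wt Quad at 1.36 and 1.32 and Sol at 1.25 and 1.23. The Quad peak was 2766 bp wide and the EDL peak 1576 bp, and without division by width the difference was 0.63. Trio, an exchange factor that activates small GTPases, was the single gene nearest to more than 1 region higher in EDL, both in intron 1 of 56. The region 631 bp from the start site was at 1.39 and 1.00 in EDL and 0.020 and -0.34 in Quad (2.55-fold), but Sed Quad reached 0.96 and 1.53, as high as EDL. The region 37.9 kb downstream was at -0.28 and -0.89 against -1.10 and -2.08.

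Acot11, an acyl-CoA thioesterase, had an intronic region at -0.99 and -0.96 in EDL and -2.33 and -2.16 in Quad (2.41-fold), with Wt Quad between them at -1.56 and -1.66. Slc6a17, a vesicular amino acid transporter, had a region in intron 5 of 12 at 0.089 and -0.18 against -1.02 and -1.54. There all 4 libraries of Sed and Wt Quad, from -0.84 to -0.71, lay below EDL and above Quad. The region nearest to Mir3067 lies in intron 2 of 7 of Slc8a3, a sodium-calcium exchanger of the plasma membrane, and was at 0.42 and -0.037 in EDL and -0.62 and -1.48 in Quad. Wt Quad, at -1.03 and -0.72, was within the range of Quad. The remaining 5 of the first 12 were regions near Zfp106 (an RNA-binding zinc finger protein of the neuromuscular system), Trim44, the metalloprotease gene Adamts20 and the uncharacterized transcripts 9530026P05Rik and 1700104L18Rik. Their differences ranged from 1.24 (1700104L18Rik) to 1.39 (9530026P05Rik). With the level taken over input in place of width, 3 of the first 12 turned round, Acot11 (-0.45), 9530026P05Rik (-0.33) and Zfp106 (-0.080).

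Among the first 12 genes with lower H3K27ac in EDL, promoters were affected at the developmental gene Mab21l1 and at Adamts12, a secreted metalloprotease of the extracellular matrix. Mab21l1 stood at -0.66 and -0.80 in EDL and 0.65 and 0.64 in Quad (2.59-fold lower). Sed Quad (0.57 and 0.71) and Wt Quad (0.32 and 0.26) lay with Quad, so all 6 quadriceps libraries were above both EDL libraries. At the Adamts12 promoter EDL was at -0.83 and -0.62, Quad at 0.41 and 0.62, and Sed Quad at 0.25 and 0.61. Sol and Dia were closer to EDL there, from -0.38 to -0.14. Its EDL peak was 5637 bp wide and its Quad peak 2916 bp, and the difference of -1.24 became -0.38 without division by width.

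The largest difference of this direction, -1.39 (2.62-fold), was at an intergenic region 90.5 kb upstream of Zfp217, a zinc finger regulator of transcription. EDL was at -1.70 and -1.63, Quad at -0.34 and -0.21, and the other quadriceps sets were between -0.83 and -0.51. Over input the Zfp217 difference was -0.19. Ears2, which charges mitochondrial tRNA with glutamate, had an intronic region at -1.55 and -1.30 in EDL against -0.076 and -0.18 in Quad. All 4 libraries of Sed and Wt Quad (-0.49 to 0.12) were above EDL there as well. Tgfbr3, the betaglycan co-receptor of TGF-beta, had a region in intron 13 of 16 at -0.66 and -0.79 in EDL and 0.64 and 0.43 in Quad. Dapk1, a calcium/calmodulin-dependent kinase of cell death pathways, had an intergenic region 93.8 kb upstream at -1.52 and -1.15 against -0.17 and -0.029, with Sed Quad at -0.62 and -0.084.

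Nmt2, an enzyme that attaches myristate to proteins, was at -1.12 and -0.38 in EDL and 0.38 and 0.68 in Quad, and Wt Quad (0.027 and -0.31) lay between them. At the region nearest to Srpr, inside intron 2 of 7 of Fam118b, Wt Quad instead overlapped EDL: EDL -1.85 and -1.31, Wt Quad -1.14 and -1.498, Quad -0.24 and -0.45. The other 4 were near Tmem216 (a protein of the base of the cilium), Mir7243 (within intron 9 of 15 of the receptor gene Ephb1), 1810007C17Rik and Wwox, with differences from -1.30 to -1.21. Over input the difference at Mir7243 was 0.018, so its direction was not kept.

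**Figure D2:**
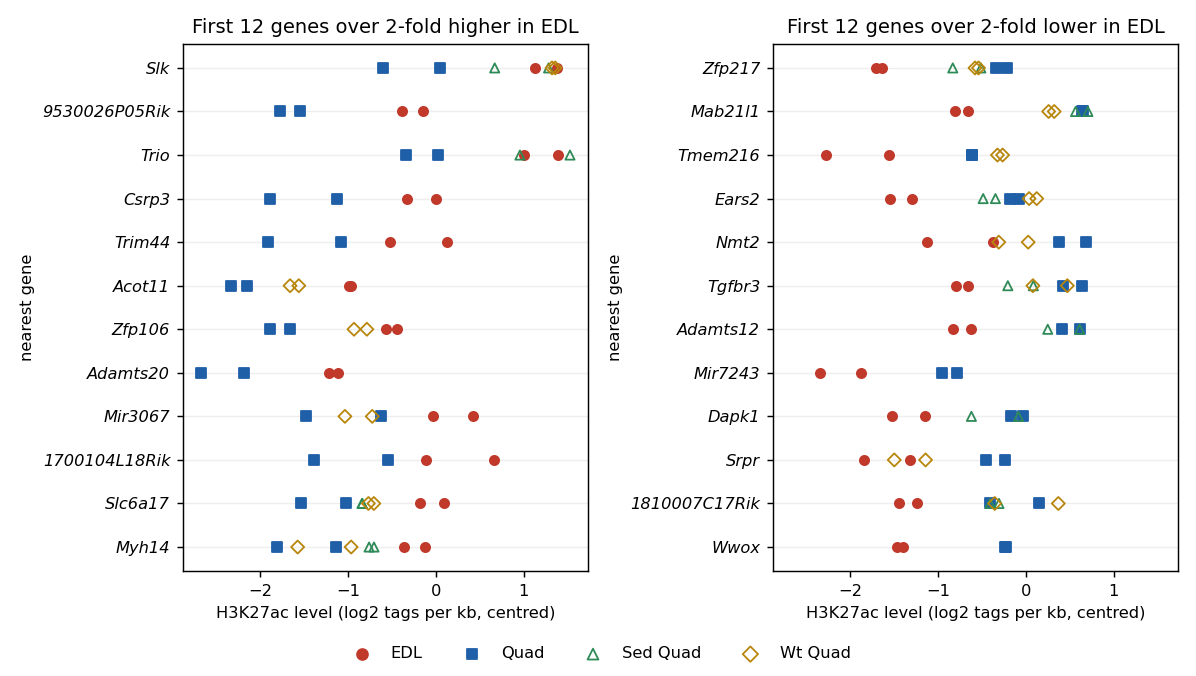
H3K27ac level (log2 tags per kb, library median at 0) of each library at the first 12 genes over 2-fold higher (left) and lower (right) in EDL, with 2 points each for EDL (circles), Quad (squares), Sed Quad (triangles) and Wt Quad (diamonds). Open symbols are absent where the region had no match in that set. At Slk and Trio the open symbols sit with EDL, whereas at Mab21l1, Ears2 and Adamts12 they sit with Quad.

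Genes were then read by function. Of 18 lists, the regulators of oxidative metabolism had the highest median difference from Quad with the processing used here. Over 10 alternatives (6 other ways of processing and 4 with a library left out) they stayed first in 4, and the slow contractile list was first in the other 6. With other quadriceps sets the first list was the fast contractile one (against Sed Quad) or that of endothelial markers (against Wt Quad). The 55 regions of the oxidative regulators, nearest to 19 of the 20 listed genes, had a median EDL minus Quad difference of 0.31 (SD 0.16 over the 4 single-library pairings), against 0.011 over all matched regions. Differences were positive at 43 regions and negative at 12. At 1.5-fold 9 were higher and 1 was lower, that is 9 of 55 beside 4.53% of all regions. The 9 lay near 5 genes, with 3 near Esrrg, 2 near Nr4a2, 2 near Nrip1 and 1 each near Ppara and Ppargc1b. The 3 genes over 2-fold were Esrrg, Nr4a2 and Nrip1. Esrrg is an orphan nuclear receptor that activates oxidative genes, and its intronic region was at -0.46 and -1.02 in EDL and -1.46 and -2.39 in Quad. The Sol libraries, at 0.31 and -0.50, lay on the EDL side. Wt Quad, at -1.59 and -0.62, had 1 library within the range of Quad and 1 within that of EDL. Over input the difference of EDL minus Quad was 0.20 in place of 1.19.

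Nr4a2 is an orphan nuclear receptor of the NR4A family, which muscle induces on activity. Its promoter was at 1.76 and 1.22 in EDL and 0.69 and 0.10 in Quad, whereas Sed Quad, Wt Quad, Sol and Dia were all between 1.07 and 1.64. Nrip1 encodes RIP140, a corepressor that holds oxidative genes down, so its function runs against the name of the list. Its region 34.6 kb upstream was at 1.39 and 0.97 in EDL and 0.49 and -0.14 in Quad, with the 4 libraries of Sed and Wt Quad from 0.68 to 1.12. Sol there was at 0.59 and -0.21 and Dia at -0.23 and -0.999. Other members over 1.5-fold, named after their values were seen, were Ppara (difference 0.90), a receptor for fatty acids, and the coactivator gene Ppargc1b (0.60) on the higher side and Rxra (-0.66), the common partner of such receptors, on the lower side. Ppargc1a itself, the main coactivator of the program, had 7 regions with differences from 0.031 to 0.83 and a median of 0.49, all positive. None counted at 1.5-fold, since libraries overlapped at the one region that reached that size. With Sed Quad or Wt Quad in the place of Quad, and the same EDL libraries, the list's median was 0.36 and 0.15. Over input instead of width it was 0.25. Against Sol the same EDL libraries gave 0.24 (37 of 55 positive, beside -0.040 over all regions), and against Dia -0.0004. A positive median of this list is therefore not read as a more oxidative muscle.

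The slow contractile genes came next. Their 21 regions near 11 of 17 genes had a median difference of 0.24 (SD 0.13), with 14 positive and 7 negative, 5 over 1.5-fold higher and 0 lower (5 of 21 and 0 of 21 beside 4.53% and 3.97% of all regions). Besides Csrp3, the list's second gene over 2-fold was Actn2, the alpha-actinin that anchors thin filaments in the Z-disc. Its region 1.5 kb into the gene was at 1.69 and 1.23 in EDL and 0.80 and 0.089 in Quad. Sed Quad (0.67 and 0.38) and Wt Quad (-0.012 and 0.068) were below EDL as well, and Sol and Dia (1.01 to 1.61) were near it. A second Actn2 region 17.0 kb upstream (0.91), one near Ankrd2 (0.72), a stretch-responsive protein of slow fibers, and one near Tpm3 (0.59), the slow tropomyosin, also passed 1.5-fold and are named after their values were seen. The last pair had differences of -0.23 and -0.28 without division by width, so their direction depended on it. The list's median was 0.080 against Sed Quad and -0.057 against Wt Quad, so the positive median was not seen with the Wt set. It was 0.079 without the first EDL library and 0.43 without the second.

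The fast contractile genes had a median difference near 0 from Quad, but not from the other quadriceps sets. Over 27 regions near 15 of 18 genes the median was -0.0015, with 13 positive and 14 negative. At 1.5-fold 2 of 27 were higher and 1 of 27 lower, beside 4.53% and 3.97% of all regions. Against Sed Quad the list's median was 0.38, with 20 of 24 regions positive, and against Wt Quad 0.13, with 21 of 27 positive, beside -0.038 and -0.012 over all regions. Their levels were high in both muscles, with medians of 0.94 and 1.09 in EDL and 1.26 and 1.22 in Quad. Myh4, the myosin heavy chain of the fastest fibers, was the lower one: 0.65 and 0.84 in EDL and 1.495 and 1.22 in Quad (1.53-fold). Sed Quad (0.93 and 0.52) overlapped EDL and Wt Quad (1.29 and 1.29) lay with Quad. This EDL peak was 15576 bp wide and the Quad peak 11638 bp. The Myh4 difference of -0.61 was -0.28 without division by width and -0.24 over input. Cacna1s, the voltage sensor of excitation-contraction coupling, was higher at 1.02 and 1.53 against 0.83 and 0.50, but the difference of 0.61 was 0.029 without division by width.

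The landmark muscle genes checked the labelled tissue, since strong H3K27ac at them is a property of skeletal muscle. Acta1, skeletal actin, was at 1.69 and 1.51 in EDL and 1.35 and 1.28 in Quad. Ckm, muscle creatine kinase, was at 1.61 and 1.57 and at 2.06 and 1.88. Pvalb, the calcium buffer of fast fibers, was at 1.21 and 1.20 and at 1.53 and 1.27. At these regions all 3 therefore stood over 2-fold above the median region in every library, and none was 1.5-fold apart. Each was the gene's matched region of highest mean level, a choice that favours high levels. A weaker Pvalb region 8.88 kb upstream was over 1.5-fold higher in EDL, with a difference of 0.59. Myh2, the myosin of fast oxidative fibers, was at -0.18 and -0.39 in EDL and -0.80 and -0.56 in Quad, and Myh1 had no matched region of its own.

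Transcription factors of fiber type had 133 regions near 26 of 28 genes and a median of 0.097 (SD 0.11). At 1.5-fold 13 of 133 were higher and 4 of 133 lower, beside 4.53% and 3.97% of all regions. Members of the list are named here after their values were seen. Tead1, a factor that binds muscle promoters with the YAP and VGLL cofactors, was nearest to 4 of those higher and 1 of those lower. Its region close to the start site was at 1.32 and 1.20 in EDL and 0.86 and 0.14 in Quad, but Sed Quad (1.18 and 2.25) overlapped EDL. Hdac4, a class II histone deacetylase that represses MEF2 targets, was at 1.85 and 1.57 in EDL against 1.03 and 0.73 in Quad at its promoter. Sed Quad (1.20 and 1.28) and Wt Quad (1.11 and 1.22) lay between them, and over input the difference of EDL minus Quad was 0.78 in place of 0.83. The largest difference among the lower ones, -0.68, was at a region distal to Mef2a, and without division by width it was 0.16, so its direction was not kept.

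Genes of limb position and Hox clusters showed differences in both directions. The median over 42 regions near 23 of 51 genes was -0.0027. At 1.5-fold 6 of 42 were higher and 4 of 42 lower, beside 4.53% and 3.97% of all regions. The Hoxd8 promoter was at 0.95 and 0.58 in EDL and -0.37 and -0.38 in Quad (2.20-fold). Wt Quad was at -0.079 and -0.089, Sed Quad at -0.094 and 0.67, Sol at 0.62 and 0.68 and Dia at -0.29 and -0.20. The muscles of the lower leg, EDL and Sol, thus carried the higher levels at Hoxd8, with 1 Sed Quad library among them. In the Hoxc cluster, a region 26.1 kb from the Hoxc4 start was lower, at -1.35 and -1.53 in EDL and -0.41 and -0.45 in Quad. The levels in Sol were -1.20 and -1.21 and in Dia 1.15 and 1.14, so the ordering at this region ran from the lower leg through the quadriceps to the trunk. Its EDL peak was 3076 bp wide and its Quad peak 1863 bp. The difference of EDL minus Quad, -1.01, was -0.37 without division by width and -0.57 over input. That ordering was not seen at the strongest Hoxc4 region, 34.7 kb from the start. There Sol (-0.75 and -0.92) and Dia (-0.83 and -0.74) lay below EDL (-0.57 and -0.49) and Quad (-0.37 and -0.37). Nor was it seen at Hoxc6, where Sol (0.89 and 0.98) and Dia (1.02 and 1.24) lay below EDL and Quad. Other Hox regions were close in the muscles: Hoxa9 0.82 and 0.95 against 0.94 and 0.89, Hoxc6 1.53 and 1.59 against 1.42 and 1.39. Differences of the Hox landmarks by their strongest region ran from -0.56 (Hoxb2) to 1.14 (Hoxd8).

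Metabolic enzymes had medians near 0 against Quad, and this too depended on the quadriceps set. Glycolysis and glycogen genes had 61 regions and a median of -0.041. Genes of fatty acid use and oxidative metabolism had 53 regions and a median of 0.094. At 1.5-fold 2 of 61 and 1 of 53 were higher, beside 4.53% of all regions. On the lower side were 1 of 61 and 0 of 53, beside 3.97% of all. Against Sed Quad these lists had medians of 0.24 (45 of 59 positive) and 0.23 (40 of 54), and against Wt Quad 0.087 (40 of 61) and -0.010 (23 of 49). Slc2a4, the insulin-responsive glucose transporter GLUT4, was the one over 2-fold, at an upstream region with -0.66 and -0.83 in EDL and -1.43 and -2.11 in Quad. Sol (0.11 and -0.21) and Dia (0.0075 and -0.00090) were higher than both. Over input the Slc2a4 difference of EDL minus Quad was 0.16. Acsl1, which activates long-chain fatty acids, had an upstream region at 0.15 and 0.30 against -0.90 and -0.23, a difference that was 0.18 without division by width.

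Growth, atrophy and glucocorticoid genes had 97 regions with a median of -0.0053, 3 higher and 7 lower at 1.5-fold, beside 4.53% and 3.97% of all regions. Foxo3, a transcription factor of muscle atrophy, was over 2-fold lower at the distal region printed above, with -1.09 and -1.24 in EDL and -0.29 and 0.024 in Quad. Sed Quad (-0.56 and -0.29) and Wt Quad (-0.050 and -0.65) were above EDL too. The EDL peak (3101 bp) was wider than the Quad peak (1579 bp), and without division by width the difference was -0.15. The clock list had 50 regions and a median of 0.040. At 1.5-fold 0 of 50 were higher and 4 of 50 lower, beside the same 4.53% and 3.97% of all regions. All 4 were near Hlf and Rora (named after their values were seen). Hlf, a clock-controlled PAR bZIP factor, was at -1.71 and -1.32 in EDL and -0.74 and -0.35 in Quad at one region and had a difference of -0.80 at another, and Rora, a nuclear receptor of the clock, had differences of -0.88 and -0.70. Activity-induced genes (67 regions), neuromuscular junction genes (15) and myogenic regulators (13) had medians of -0.0084, 0.041 and -0.14, with at most 2 regions over 1.5-fold in a direction.

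The strongest members of the remaining lists showed single regions on either side. Fos, an immediate early gene, had both: a region 26.8 kb upstream at 0.25 and 0.26 in EDL and -0.40 and -0.51 in Quad, and a region 49.7 kb downstream at -0.66 and -0.87 against -0.072 and -0.12. Against Wt Quad the upstream Fos region was lower in EDL, since Wt Quad was at 0.83 and 0.27. Chrne, the epsilon subunit of the adult acetylcholine receptor, was at -0.22 and 0.0049 in EDL and 0.73 and 0.34 in Quad, while Dok7, an adaptor that builds the neuromuscular junction, was at 0.95 and 0.91 against 0.13 and 0.71. Pax7, the factor of satellite cells, was at -1.81 and -1.45 against -0.62 and -1.21. Over input the Pax7 difference was 0.44, so its direction depended on the scaling. Lpl, lipoprotein lipase, was at -0.28 and -0.33 in EDL and -0.021 and 0.49 in Quad at a distal region.

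Markers of other cells of muscle were read in the same way. Tendon and fibroblast markers had the lowest median with the processing used here, -0.20 (SD 0.066) over 44 regions near 12 of 15 genes. Of these regions 11 lay near Tcf4 (median -0.085), which encodes an E protein and is not a specific marker of these cells. The list's median without Tcf4 was not computed. Over the whole list, differences were positive at 11 regions and negative at 33. At 1.5-fold 1 of 44 was higher and 6 of 44 lower, beside 4.53% and 3.97% of all regions. By gene, the median was positive for the tendon genes Scx (0.23), Fmod (0.23) and Thbs4 (0.61), named after their values were seen. It was negative for all other genes of the list with a matched region, among them Pdgfra (-0.58), Col3a1 (-0.55) and Osr1 (-0.54). The low median of the joint list is therefore not read as one of tendon. Tnxb, the matrix protein tenascin-X, was over 2-fold lower in an intron, with -1.84 and -2.14 in EDL and -0.94 and -0.92 in Quad. The medians of the other marker lists were -0.14 for smooth muscle and pericytes (9 regions), -0.049 for leukocytes (7), 0.034 for endothelium (49), 0.049 for adipocytes (11) and 0.14 for Schwann cells (8). Levels of the tendon and fibroblast regions were below the library median in both muscles, with medians of -0.42 and -0.44 in EDL and -0.31 and -0.24 in Quad. Over the 10 alternatives it was the lowest list in 5. Against Sed Quad and Wt Quad its median was -0.22 and -0.099, and leukocyte markers were lowest there, at -0.40 (2 of 6 positive) and -0.81 (0 of 7). Endothelial markers were at 0.24 (25 of 35) and 0.68 (24 of 26) against those sets, smooth muscle and pericytes at -0.35 and -0.26, Schwann cells at -0.14 and -0.13 and adipocytes at 0.26 and -0.056. Several marker lists thus lay further from 0 against Sed Quad or Wt Quad than against Quad. The part of connective tissue in the regions lower in EDL, among them Adamts12 and Tgfbr3, was not tested.

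**Figure D3:**
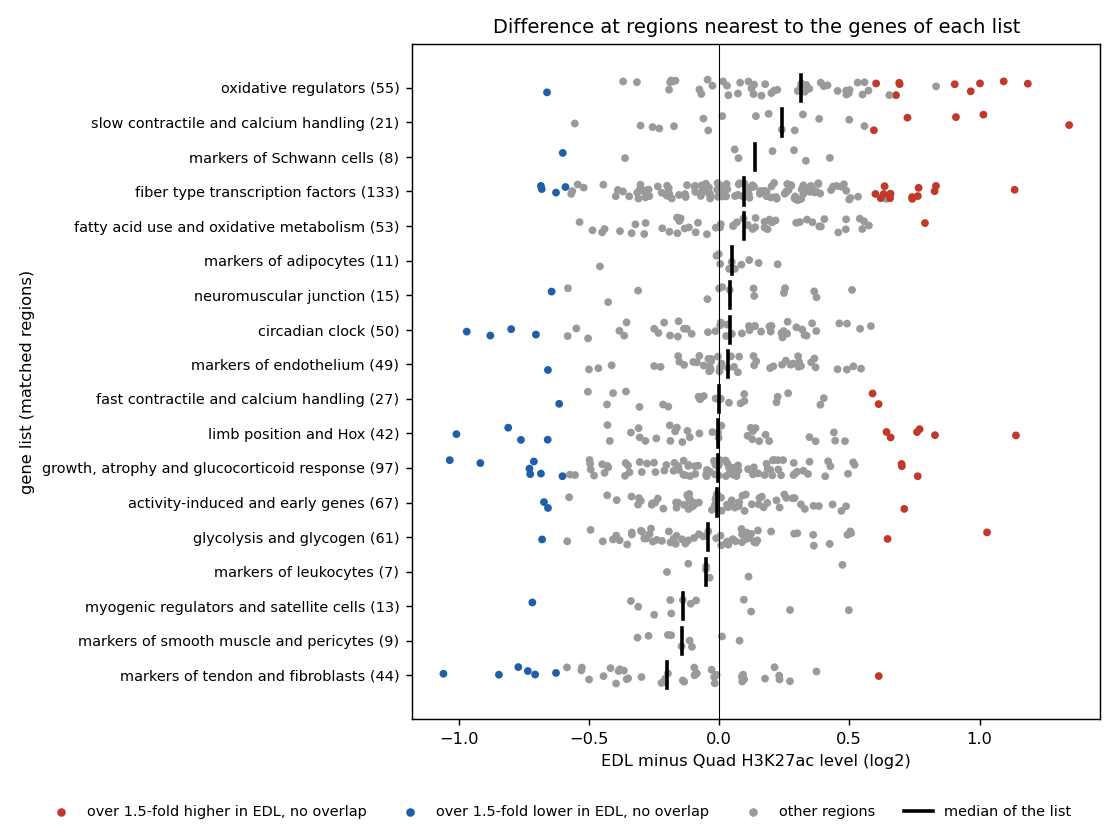
EDL minus Quad difference of H3K27ac level (log2, x axis) at each matched region nearest to a gene of 18 lists (rows, number of regions in brackets), with red and blue points over 1.5-fold apart without overlap of libraries and black bars at list medians. Oxidative regulators and slow contractile genes lie to the right, with medians of 0.31 and 0.24. The joint list of tendon and fibroblast markers lies to the left with -0.20, though its tendon genes Scx, Fmod and Thbs4 had positive medians.

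A second mark, measured in other libraries of both muscles, was read at the same places. H3K4me2 (dimethylation of lysine 4 on histone H3) marks promoters and enhancers whether or not they are acetylated. By the same rule 135 of 28031 matched H3K4me2 regions (0.482%) were over 2-fold apart between EDL and Quad. Of the 90 regions with higher H3K27ac in EDL, 46 overlapped a matched H3K4me2 region, and H3K4me2 was higher in EDL at 38 of them. At 28 of the 46 both EDL libraries were above both Quad libraries, against 32.8% over all regions. Of the 57 with lower H3K27ac, 20 had matched H3K4me2, which was lower in EDL at 15, and at 11 of 20 both EDL libraries were below both Quad libraries, against 36.6% over all regions. The sizes were smaller than for H3K27ac, with median differences of 0.15 and -0.36 against 1.10 and -1.10 for H3K27ac, and -0.015 for H3K4me2 over all regions. By list, the median H3K4me2 difference was -0.033 for oxidative regulators (33 regions), 0.014 for slow contractile (11) and -0.30 for fast contractile genes (19). At the Nr4a2 promoter the H3K4me2 difference was -0.24, opposite to that of H3K27ac.

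**Figure D4:**
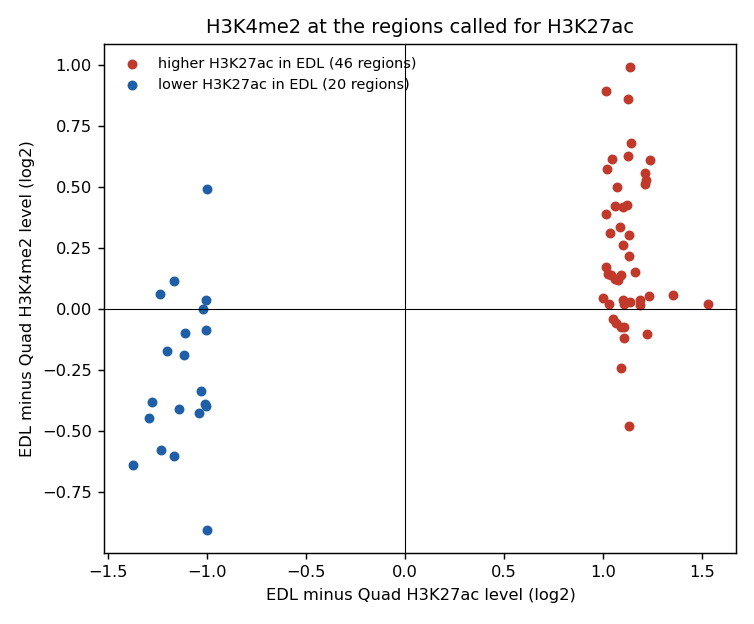
EDL minus Quad difference in H3K27ac level (x axis) and in H3K4me2 level (y axis), both log2, at the 46 regions over 2-fold higher (red) and 20 over 2-fold lower (blue) in H3K27ac that overlap a matched H3K4me2 region. The H3K4me2 difference is positive at 38 of the 46 and negative at 15 of the 20.

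Open chromatin of Quad covered a smaller share of the different regions than of all regions. A Quad ATAC-seq peak overlapped 78.5% of all matched regions but 53 of 90 (58.9%) of the higher and 33 of 57 (57.9%) of the lower set, and no ATAC-seq of EDL was used here. Peaks of MED1, a subunit of the mediator complex that bridges enhancers and RNA polymerase II, came from 1 library a muscle. The Quad MED1 peaks overlapped 6.11% of all regions, 8 of 90 (8.89%) of those higher in EDL and 0 of 57 of those lower. The EDL MED1 peaks overlapped 1.44% of all, 1 of 90 and 0 of 57. Regions of both sets were also narrower, with median EDL widths of 1614.5 bp (higher) and 1670 bp (lower) against 2240 bp over all. Their median levels were lower too, at -0.43 and -0.89 against -0.015. The part of width and level in these overlaps was not tested.

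The quadriceps sets that the comparison did not use were then read at the same regions, which had been chosen on the levels of EDL and Quad. At the regions higher in EDL, 59 had a match in Sed Quad, and its libraries had median levels of -0.10 and -0.051, between the medians of EDL (0.51) and Quad (-0.55) at the same regions. At 33 of the 59 the Sed Quad mean was nearer to EDL than to Quad. In Wt Quad, with 63 matched regions, the medians were -0.28 and -0.12 beside 0.43 in EDL and -0.67 in Quad, and 30 of 63 were nearer to EDL. Sets that played no part in choosing the regions are apt to lie between the chosen extremes, so nothing about Quad is read from this order.

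At the regions lower in EDL, Sed Quad had medians of -0.51 and -0.47 at 36 regions where EDL had -1.34 and Quad -0.20, and 6 of 36 were nearer to EDL. Wt Quad had -0.22 and -0.50 at 37 regions where EDL had -1.34 and Quad -0.27, and 6 of 37 were nearer to EDL. In the other muscles, Sol had medians of 0.33 and 0.10 at 62 of the higher and -0.98 and -0.72 at 20 of the lower regions, and Dia had 0.20 and 0.14 at 62 and -0.75 and -0.72 at 23. At the higher regions Sol was nearer to EDL at 53 of 62 and Dia at 45 of 62. At the lower regions Sol was nearer to EDL at 9 of 20 and Dia at 12 of 23. The choice of regions on EDL and Quad levels bears on these counts as well. A match in Sol was found for 62 of the 90 higher and 20 of the 57 lower regions, beside 71.5% of all.

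**Figure D5:**
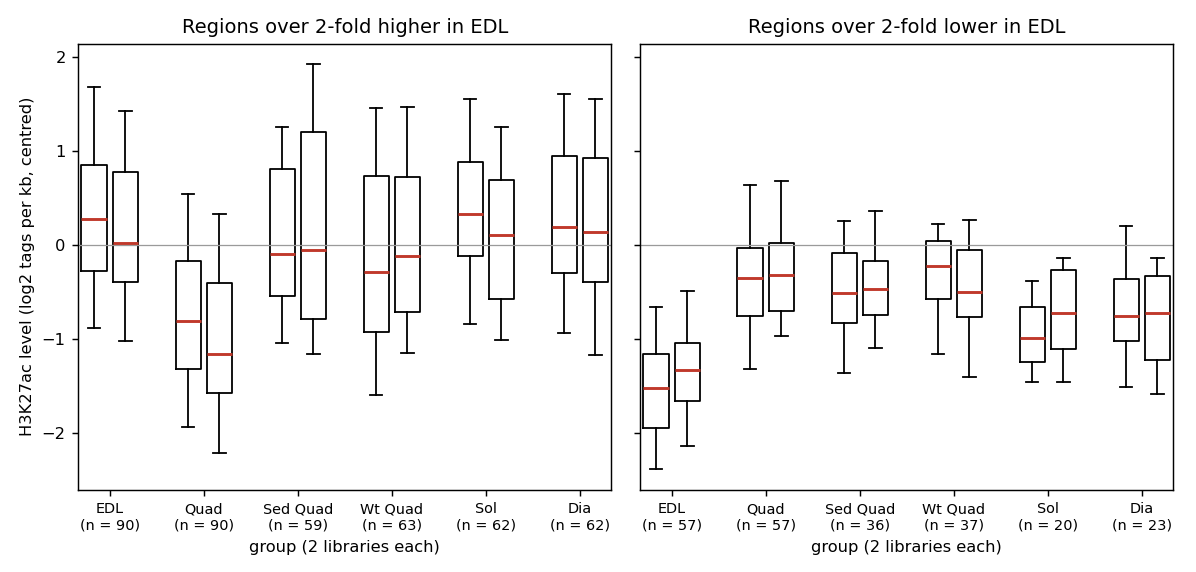
H3K27ac level (log2 tags per kb, centred) at the regions over 2-fold higher (left) and lower (right) in EDL in each of 2 libraries of EDL, Quad, Sed Quad, Wt Quad, Sol and Dia, at those with a match in that set (n below each group). Red lines are medians, boxes the interquartile range and whiskers the 5th to 95th percentile, and Quad is the lowest group on the left and EDL the lowest on the right, as the choice of regions on these levels favours.

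Levels depend on how wide each list drew a peak. The difference of EDL minus Quad had a rank correlation of -0.26 with the log2 ratio of widths across regions. Without division by width all 90 and all 57 regions kept their direction, but the rules nearly fix this outcome. The overlap rule limits the ratio of paired widths to about the fold difference that a region had to pass. The kept direction is therefore no measure of how far the differences depend on width. Over input in place of width, 76 of 90 and 51 of 57 regions kept their direction, beside 63.2% of all matched regions. The sizes shrank, with median differences of 0.37 and -0.52 over input in place of 1.10 and -1.10.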

How the data were processed

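ChIP-seq of H3K27ac and H3K4me2 was made by the authors in whole muscle with 2 libraries per group, as 75-bp single-end reads. Per the labels and the submitters' processing notes, reads were aligned to mm10 with Bowtie 1.2, and HOMER tag directories kept 1 tag per position. Per the methods, the authors called peaks over both replicates against input with HOMER and DESeq2 at 2-fold and an FDR of 0.05, with 1 input for EDL and 2 for Quad. The deposited tag columns are log2 values, taken here to be the regularized logarithm that the authors' run of DESeq2 gave within each list. The deposited p-value column (adjusted) served for a stricter alternative, the deposited ATAC list gives a signal in normalized tags and the deposited MED1 lists a peak score, and both of the latter were used for overlap and rank. Columns of the authors' fold changes were not used. Nearest genes are those of the EDL list, because the Quad list holds symbols that a spreadsheet turned into dates.

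Each EDL peak was given at most 1 Quad partner, with an overlap of 50% of both, levels were scaled by width and centred per library, and groups were compared without a test. For the other sets, the centre was the median of EDL and Quad over the regions shared with them. Rank correlations across regions carry no p, since regions are not replicates. The computation was tested on simulated data. Named genes were the first 12 by size in each direction, genes nearest to 2 or more regions of a direction, on each of 18 lists the members over 2-fold or else those with the largest difference in each direction, and landmark and Hox genes by their strongest region. Some items that these rules name are not reported here. Members and lists were chosen with earlier results of these data known. Alternatives were an overlap of 80%, no division by width, levels over input, quantile normalization, leaving out the lowest 25% of levels or each library, an adjusted p under 0.001, a 1.5-fold limit, and Sed or Wt Quad in place of Quad. Python 3.11.15, numpy 2.4.6, pandas 2.3.3, scipy 1.17.1 and matplotlib 3.10.9 were used.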

Additional observations from a re-analysis of the deposited data

How the results depend on the processing

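The counts of different regions depended more on the processing than the ranking did. With an overlap of 80% the counts were 12 higher and 22 lower in place of 90 and 57, without division by width 469 and 621, without the lowest 25% of levels 51 and 23, with an adjusted p under 0.001 in both lists 49 and 18, and at 1.5-fold 1020 and 894. The lower count was 95 over input, 144 with Sed Quad and 340 with Wt Quad in place of Quad, and the higher count stayed within 1.5 times of 90 in those 3. Leaving out 1 library gave 84 to 280 higher and 67 to 206 lower, and a single library overlaps less often by construction. Spearman's rank correlation was 0.954 without division by width, 0.759 over input, 0.882 without the lowest 25%, 0.899 with Sed Quad, 0.9002 with Wt Quad and 0.898 to 0.931 without 1 library. Among the named regions, Acot11 (-0.45), 9530026P05Rik (-0.33), Zfp106 (-0.080) and Mir7243 (0.018) turned round over input, Slk with Wt Quad (-0.10) and Trio near its start site with Sed Quad (-0.034). The cause was not tested. Of the 35 named regions over 2-fold, 35 stayed within 1 SD under quantile normalization, but 12 did without division by width, 5 over input, 4 of 18 with Sed Quad and 6 of 23 with Wt Quad. Of 18 list medians, 18 stayed within their spread under quantile normalization, 12 without division by width and 8 over input. No paired analysis was possible because an EDL library pooled 3 animals and a Quad library came from 1, and no label links libraries of the muscles.

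Of the list medians, those over input moved to 0.14 (fast contractile), 0.081 (slow contractile), 0.058 (glycolysis), 0.045 (myogenic), 0.093 (activity-induced), 0.16 (clock), -0.074 (adipocytes), -0.13 (endothelium), -0.17 (Schwann cells) and -0.27 (smooth muscle). Without division by width they moved to 0.0008 (fatty acid use), -0.11 (limb position and Hox), 0.32 (neuromuscular junction), -0.34 (tendon and fibroblasts), -0.29 (leukocytes) and -0.17 (Schwann cells). At an overlap of 80% they moved to -0.15 (glycolysis), -0.27 (myogenic) and -0.14 (tendon and fibroblasts), and without the lowest 25% the last was -0.14. Without 1 library the medians ranged from -0.081 to 0.066 (fast contractile), 0.079 to 0.43 (slow contractile), -0.12 to 0.014 (glycolysis), -0.010 to 0.12 (fatty acid use), 0.17 to 0.35 (oxidative regulators), 0.005 to 0.20 (fiber type factors), -0.17 to 0.047 (myogenic), -0.046 to 0.035 (limb position and Hox), -0.061 to 0.059 (activity-induced), -0.0057 to 0.089 (clock), -0.10 to 0.057 (growth), -0.0003 to 0.12 (neuromuscular junction), -0.22 to -0.13 (tendon and fibroblasts), -0.052 to 0.048 (adipocytes), 0.021 to 0.10 (endothelium), -0.16 to 0.17 (leukocytes), 0.0044 to 0.31 (Schwann cells) and -0.19 to -0.059 (smooth muscle).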

Other observations

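Some of the different regions lay close to another of the same direction, which is given as a description of places and not as a test. Within 1000 kb of each other, regions higher in EDL formed 2 at Slc8a3, 18.8 kb apart from end to end, 2 at Trio (39.7 kb), 2 at Nrip1 and Usp25 (609.3 kb) and 2 at Lnpk and Hoxd8 (224.6 kb). Lnpk borders the HoxD cluster. Besides the regions that define each span, the 1 other matched region at Slc8a3 was higher in EDL, as were 2 of 3 between Lnpk and Hoxd8 and 3 of 3 between Gse1 and Cox4i1, which encodes a subunit of cytochrome c oxidase. Between Nt5c2 and Slk it was 9 of 24, and between Kcna10 and Slc6a17 2 of 15.

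Regions lower in EDL formed 3 near Zcchc6, A530065N20Rik and Dapk1 over 635.4 kb, where 12 of 18 other matched regions were lower, and 2 near Mctp2 and Gm6567 over 233.1 kb, where the 1 other matched region was lower. The genes of both paragraphs were chosen after their values were seen.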
